A study of Mus musculus with 38 samples.

Results

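This account describes 38 genes that build, lengthen, desaturate and release fatty acids, in the hypothalamus of 2 mouse models of Huntington's disease. The genes were listed by function: 6 of fatty acid synthesis and its acetyl-CoA supply, 7 elongases, 6 genes of the other steps of the elongation cycle, 5 desaturases, 6 acyl-CoA thioesterases, 2 palmitoyl-protein thioesterases and 6 of mitochondrial and peroxisomal steps. Each of the 38 has a probe set that names it alone, out of 19937 genes with such a probe set, and the one with the highest mean stands for the gene. All 38 mice were female and of the FVB/N strain, fed chow, and gave 1 Affymetrix Mouse Gene ST array each from the dissected, snap-frozen hypothalamus, and the deposited values are log2 intensities after Robust Multi-Array Averaging (RMA).

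The AAV experiment holds 5 wild-type mice injected bilaterally at 8 weeks of age with AAV-HTT853-18Q (18Q), 8 injected with AAV-HTT853-79Q (79Q) and 5 uninjected wild-type mice (WT control), all at 12 weeks of age, 4 weeks after the injection. Both vectors are of serotype 5 and express an 853 amino acid N-terminal fragment of huntingtin (HTT), with 18 or 79 CAG repeats, from the human Synapsin-1 promoter, which is active in neurons. No group received a vector without HTT, so that the injection and the HTT fragment cannot be told apart in a comparison with WT control mice. BACHD mice carry full-length human HTT with 97 CAG repeats in all tissues. At 2 months of age 6 BACHD and 6 WT mice were measured, and at 10 months 5 BACHD and 3 WT mice, the WT mice being age-matched littermates.

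Cells make fatty acids from acetyl-CoA. Acetyl-CoA comes from citrate through Acly or from acetate through Acss2 in the cytosol and Acss1 in mitochondria, acetyl-CoA carboxylase (Acaca, Acacb) turns it into malonyl-CoA, and fatty acid synthase (Fasn) joins these units to palmitate. Elongases of the Elovl family then start each round of lengthening in the endoplasmic reticulum, which Hsd17b12, the Hacd dehydratases and Tecr complete, while Scd and Fads enzymes place double bonds. Acyl-CoA thioesterases (Acot) split the finished acyl-CoA into a free fatty acid and CoA. In brain these steps supply membrane and myelin lipids, including long polyunsaturated fatty acids, to which Elovl2, Elovl5, Fads1 and Fads2 contribute.

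Array medians lay between 7.16 and 7.46, and arrays normalized together correlated at 0.985 or higher. At 2 months, WT replicates 1 and 2 stood apart by their medians (7.35 and 7.41, against 7.16 to 7.29 in the other mice of that age), WT replicate 4 by its choroid plexus markers (mean 9.18, against 7.05 to 7.60 in the others) and WT replicate 5 by its pituitary markers (11.03, against 6.50 to 9.73). Markers of hypothalamic neurons were present in every group, with 1 or 2 of 12 below the array median, and all 3 adipocyte markers lay below it in every group. In bulk tissue, fewer cells of a type and less RNA per cell cannot be told apart. The number of mice and the spread between them set the precision. The median 95% interval of a member reached 0.15 log2 units to either side at 2 months and 0.11 at 10 months. It reached 0.11 for 18Q vs. WT, and 0.099 for both 79Q vs. WT and 79Q vs. 18Q.

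**Figure D1:**
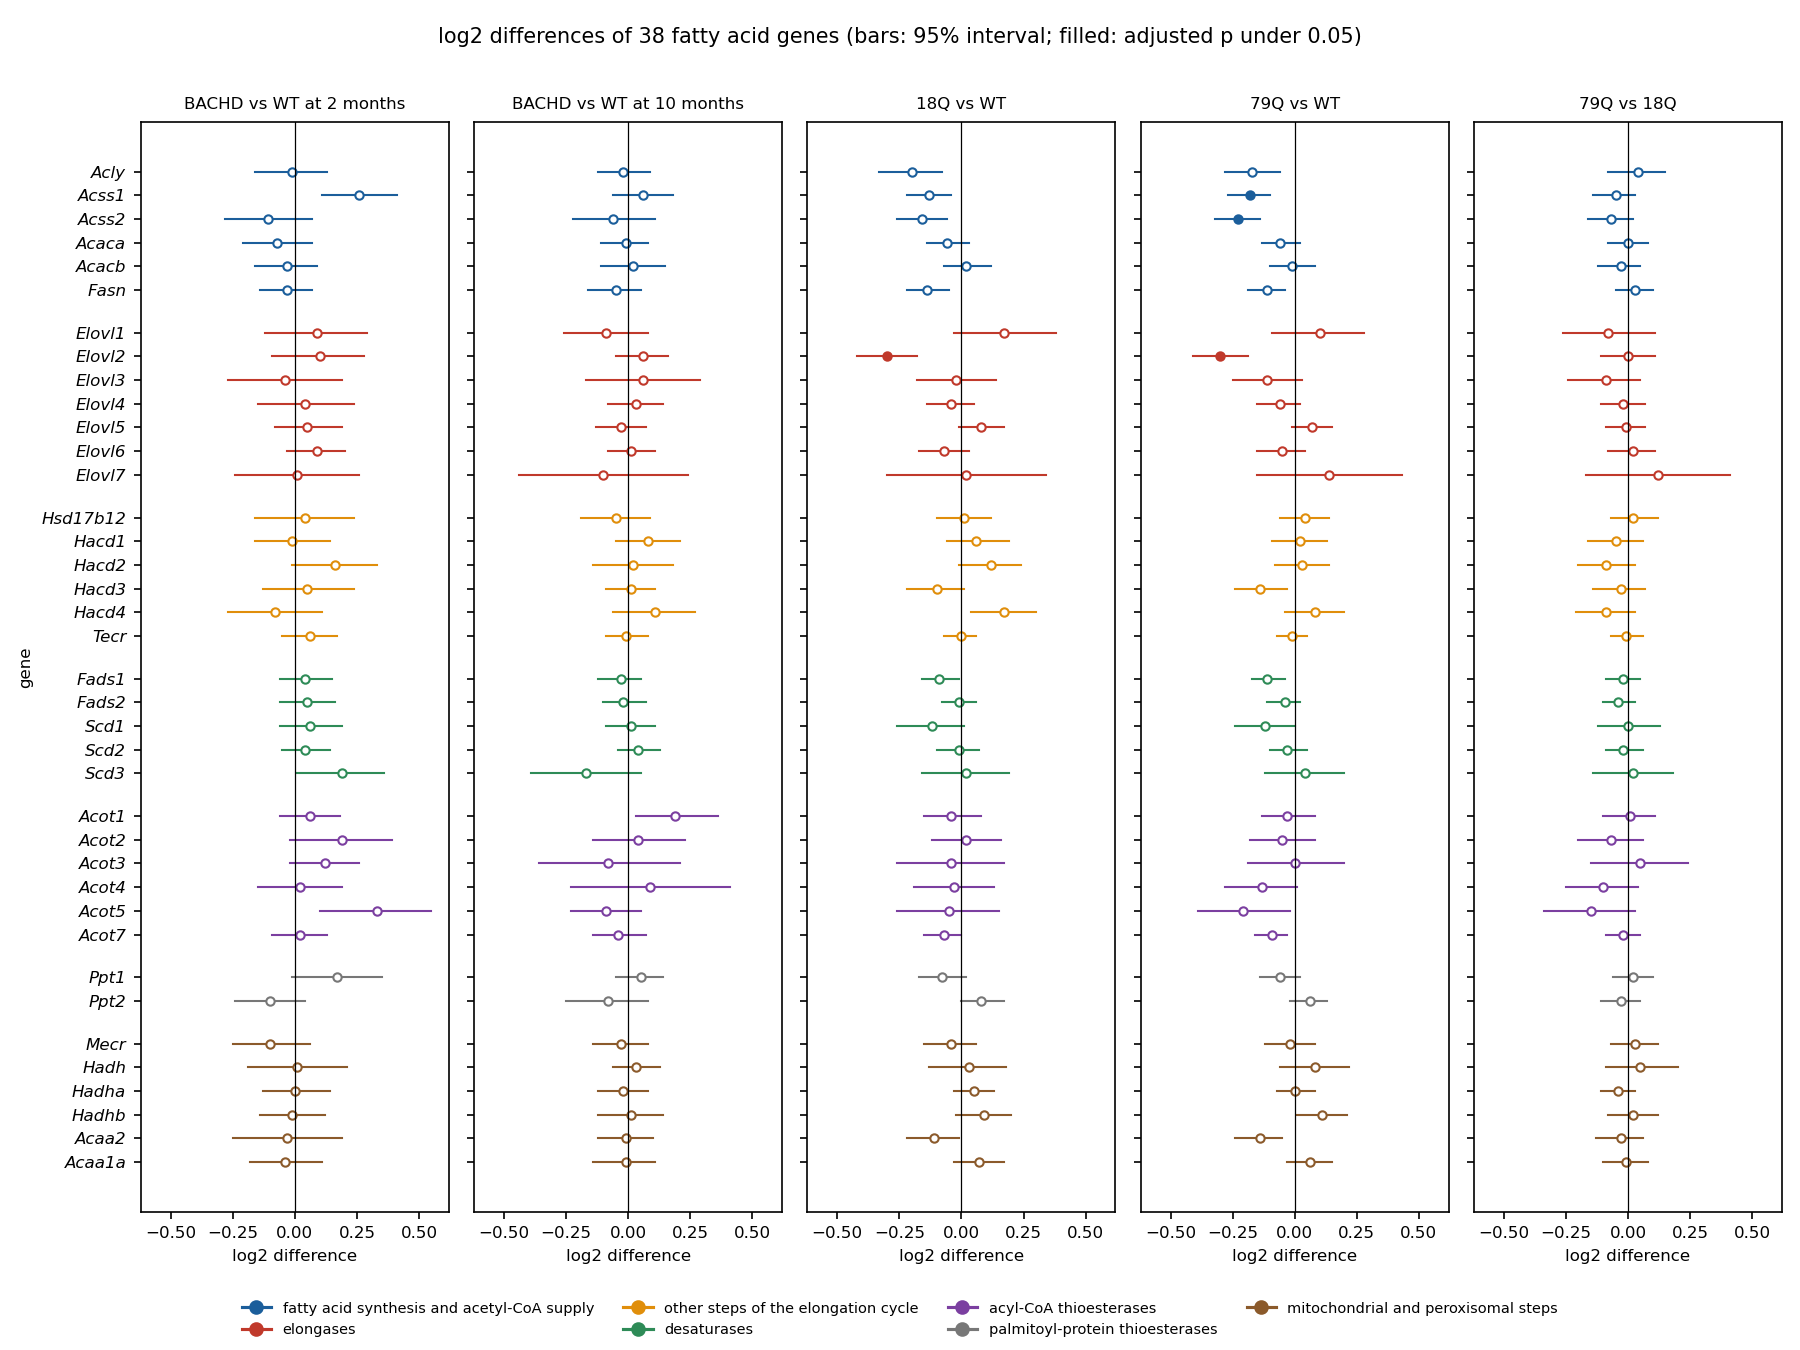
Log2 differences of the 38 genes in the 5 comparisons (x axis, log2 units; y axis, genes grouped and coloured by role). Points are limma estimates, lines are 95% intervals, and filled points have an adjusted p under 0.05: 1 gene in 18Q vs. WT (Elovl2) and 3 in 79Q vs. WT (Acss1, Acss2 and Elovl2).

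At 2 months of age, BACHD mice and their WT littermates differed little in these genes. Of the 38, 36 differed by less than 0.2 log2 units, 25 lay above 0 and 13 below, and their median difference was 0.042, whereas the median of all genes was -0.027. None passed an adjusted p of 0.05, and neither did any other gene in limma. With an unadjusted p under 0.05, 3 of the 38 genes were higher (Acss1, Acot5 and Scd3; 7.89%), against a background of 0.632% of all genes, and 0 were lower, against 2.21%. No member had groups that did not overlap, on the higher side 0.0201% of all genes. By role, the medians were 0.087 for acyl-CoA thioesterases, 0.054 for elongases, 0.048 for the other steps of the elongation cycle, 0.047 for desaturases, 0.033 for the palmitoyl-protein thioesterases, -0.022 for mitochondrial and peroxisomal steps and -0.035 for synthesis. The median depended on 1 mouse: without WT replicate 5, in which 15 of the 38 genes had their lowest WT value, it was -0.0043. The count of 3 also moved: without WT replicate 4 it was 6, with Hacd2, Acot2 and Ppt1 added, where the share of all genes was 1.13%. It was 2 without BACHD replicate 1, WT replicate 1 or WT replicate 5 (0.386%, 0.532% and 0.336% of all genes). Acss1 and Acot5 kept an unadjusted p under 0.05 in all 12 fits without 1 mouse, whereas Scd3 lost it in 7 of 12.

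In the synthesis group, Acss1 (probe set 10488482), the mitochondrial acetyl-CoA synthetase, stood at 9.64, 9.59, 9.52, 9.45, 9.58 and 9.63 in the 6 BACHD mice. The 6 WT mice had 9.10, 9.33, 9.43, 9.50, 9.19 and 9.32. All BACHD mice but the one at 9.45 lay above every WT mouse. The log2 difference was 0.26 (SE 0.071; limma, adjusted p = 0.939), and an exact two-sided permutation test of the 12 mice gave an unadjusted p = 0.00433. The other 5 genes of the group lay below 0: Acss2, the cytosolic counterpart, had -0.11 (SE 0.08), with 9.46 to 9.87 in BACHD mice and 9.60 to 9.88 in WT mice, and Acly, Acaca, Acacb and Fasn lay between -0.07 and -0.01.

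Among the acyl-CoA thioesterases, all 6 lay above 0 (median 0.087). Acot5 (probe set 10397166), a peroxisomal thioesterase, gave 5.94, 5.82, 5.65, 5.80, 6.12 and 6.07 in BACHD mice and 5.24, 5.61, 5.63, 5.76, 5.46 and 5.74 in WT mice. The groups overlapped between 5.65 and 5.76, with WT replicate 1 lowest. Its log2 difference was 0.33 (SE 0.10; limma, adjusted p = 0.939; exact permutation p = 0.0108). Without WT replicates 1 and 2, the arrays with high medians, it was 0.25. Acot2, the mitochondrial form, had 0.19 (SE 0.094), with 9.38 to 9.65 in BACHD mice and 9.10 to 9.71 in WT mice. Acot1 to Acot5 are close paralogs that lie side by side on chromosome 12, and Acot1, Acot3, Acot4 and Acot5 have mean intensities below the median probe set. Whether their probe sets tell these paralogs apart was not tested.

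All 5 desaturases lay above 0, by 0.04 to 0.19. Scd3 (probe set 10463347), a stearoyl-CoA desaturase that introduces the first double bond, had 8.52, 8.73, 8.56, 8.45, 8.45 and 8.55 in BACHD mice and 8.31, 8.53, 8.41, 8.48, 8.04 and 8.38 in WT mice. Every BACHD mouse was above the WT mean, but 2 WT mice, at 8.48 and 8.53, reached into the BACHD range. The difference of 0.19 (SE 0.082; limma, adjusted p = 0.939; exact permutation p = 0.0303) was 0.12 without WT replicate 5. Its unadjusted limma p was 0.0562, 0.0936, 0.0655 and 0.0627 without BACHD replicate 1, 2, 3 or 7, and 0.0705, 0.0897 and 0.0571 without WT replicate 1, 5 or 7. Scd1, the paralog with the next smallest p, had 0.06 (SE 0.057). For the Scd paralogs, too, cross-hybridisation was not tested.

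The elongation cycle and the remaining groups held no gene with an unadjusted p under 0.05. Elovl6, which lengthens palmitate to stearate, had 0.09 (SE 0.054) and Elovl2, which lengthens polyunsaturated fatty acids, 0.10 (SE 0.086), with 8.46 to 8.87 in BACHD mice and 8.33 to 8.77 in WT mice. Hacd2, a dehydratase of the cycle, had 0.16 (SE 0.079), and Tecr, which catalyses the last reduction, 0.06 (SE 0.051). Ppt1, the lysosomal enzyme that removes palmitate from proteins, had 0.17 (SE 0.084), with 11.41 and 11.32 in WT replicates 1 and 5 and 11.60 to 11.85 in the other mice of that age. Its relative Ppt2 had -0.10 (SE 0.065). The 6 mitochondrial and peroxisomal genes lay between -0.10 and 0.01, with Mecr, a reductase of mitochondrial fatty acid synthesis, at -0.10 (SE 0.07) and the peroxisomal thiolase Acaa1a at -0.04 (SE 0.069).

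Cell type and region markers moved between the mice of this age, too. The mean of 7 thalamic markers ran from 7.20 to 9.11 in BACHD mice (median 7.95) and from 7.57 to 8.98 in WT mice (median 8.70), with 2 of the 7 below the array median in both groups. With this mean as a covariate, the differences were 0.26 for Acss1, 0.28 for Acot5 and 0.23 for Scd3. Both groups had a similar range of the 9 oligodendrocyte markers (11.07 to 11.22 and 10.88 to 11.22), and with that mean as a covariate the 3 differences were 0.27, 0.33 and 0.19. The unadjusted limma p of Scd3 was then 0.0516, while Acss1 and Acot5 stayed under 0.05. Pituitary and choroid plexus markers were not fitted. Without WT replicates 4 and 5, which were highest in them among WT mice, the differences were 0.27, 0.34 and 0.14, and the members' median was 0.014. Scd3 had an unadjusted limma p of 0.0868 in that fit, and Acss1 and Acot5 again stayed under 0.05.

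**Figure D2:**
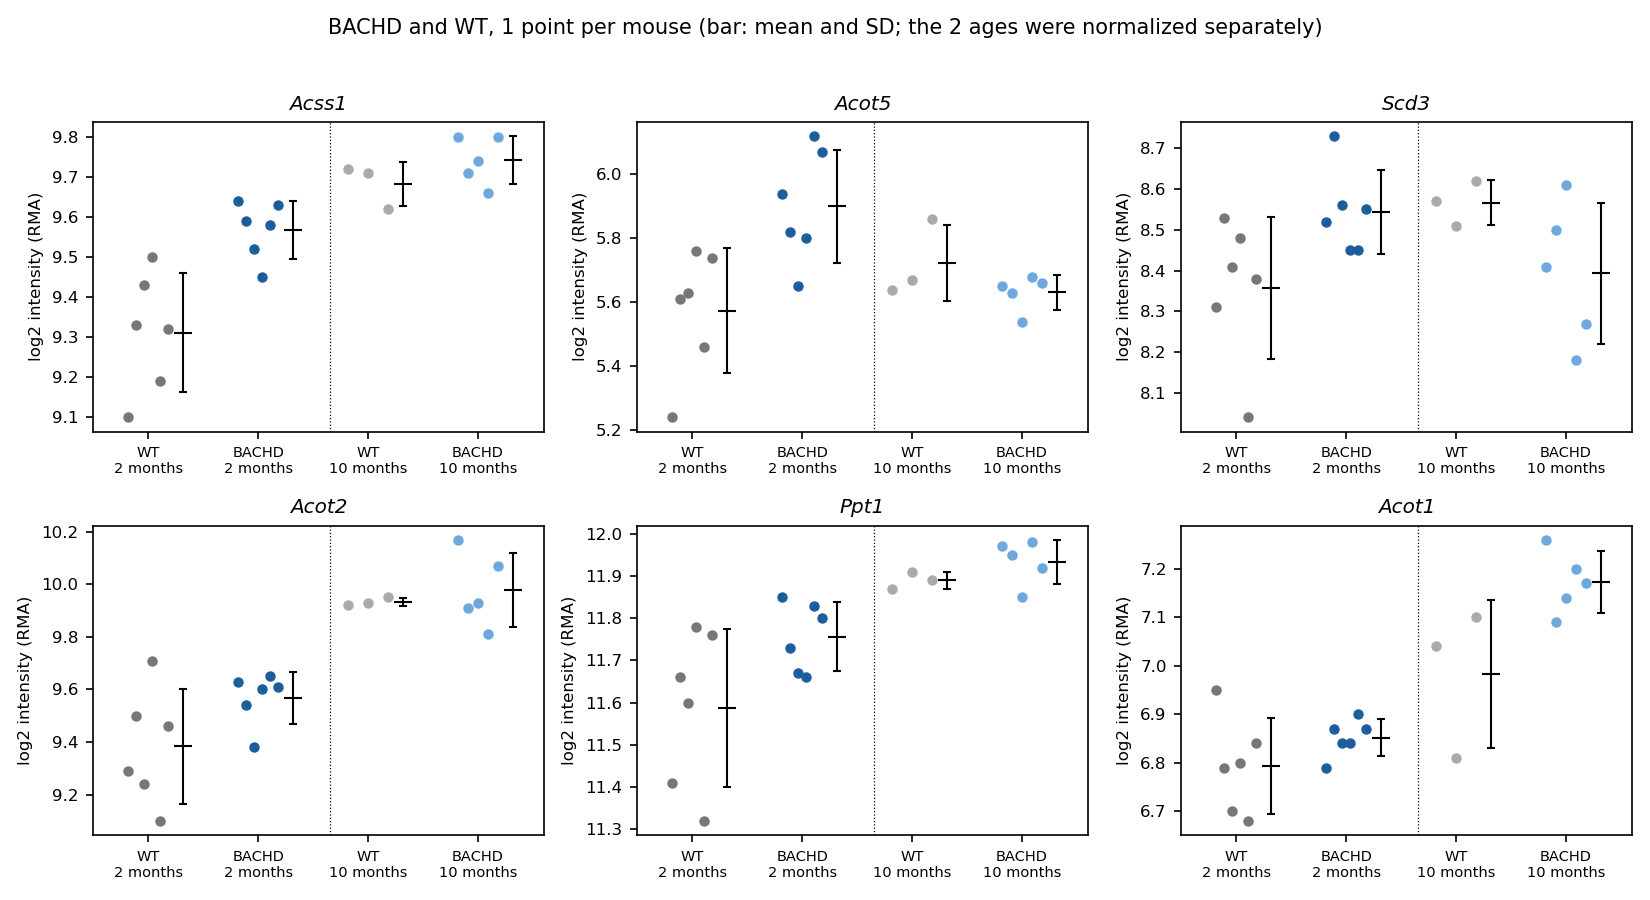
Log2 intensities after RMA (y axis) of 6 genes in BACHD and WT mice at 2 and 10 months of age (x axis), 1 point per mouse, with mean and SD beside them. Acss1 had 9.45 to 9.64 in BACHD mice and 9.10 to 9.50 in WT mice at 2 months, and 9.66 to 9.80 and 9.62 to 9.72 at 10 months. The ages were normalized separately and are compared only within an age.

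At 10 months of age, all 38 genes differed by less than 0.2 log2 units between BACHD and WT mice, with 18 above 0 and 20 below (median -0.0083, all genes 0.0086). None passed adjustment in limma. 1 member was higher with an unadjusted p under 0.05 (background 2.39%) and 0 were lower (1.55%). The gene was Acot1, the cytosolic acyl-CoA thioesterase, with 7.26, 7.09, 7.14, 7.20 and 7.17 in BACHD mice and 7.04, 6.81 and 7.10 in WT mice. Only the BACHD mouse at 7.09 lay within the WT range. The log2 difference was 0.19 (SE 0.072; limma, adjusted p = 0.997; exact permutation p = 0.0714, where these group sizes allow no value below 0.0357). Without WT replicate 2 the difference was 0.11, with an unadjusted limma p of 0.117. In the other groups the smallest p values belonged to Scd3 at -0.17 (SE 0.096), Hacd4, a dehydratase of the elongation cycle, at 0.11 (SE 0.072), Elovl2 at 0.06 (SE 0.045), Acss1 at 0.06 (SE 0.05), Ppt2 at -0.08 (SE 0.071) and Hadh, an enzyme of mitochondrial beta-oxidation, at 0.03 (SE 0.042).

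The 3 genes with an unadjusted p under 0.05 at 2 months were compared between the ages. Acot5 had 5.65, 5.63, 5.54, 5.68 and 5.66 in BACHD mice at 10 months and 5.64, 5.67 and 5.86 in WT mice, a difference of -0.09 (SE 0.061). For Scd3 the BACHD mice had 8.41, 8.50, 8.61, 8.18 and 8.27, and the WT mice 8.57, 8.51 and 8.62. The change of the genotype difference from 2 to 10 months was -0.42 (SE 0.14; limma, adjusted p = 1) for Acot5, -0.36 (SE 0.13; limma, adjusted p = 1) for Scd3 and -0.20 (SE 0.097) for Acss1. For 2 of the 38 genes, these first 2, it was lower with an unadjusted p under 0.05 (background 0.482%), and for 0 it was higher (1.76%). The 2 month values enter these terms, which are therefore no separate evidence. In the remaining groups, the smallest p belonged to Elovl1 (-0.17, SE 0.14), Hacd4 (0.19, SE 0.13), Ppt1 (-0.12, SE 0.11) and Mecr (0.06, SE 0.095), none of them under 0.05.

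In the AAV experiment, 3 of the 38 genes fell past adjustment. Elovl2 fell in 18Q vs. WT, and Elovl2, Acss2 and Acss1 fell in 79Q vs. WT. The background of genes with an adjusted p under 0.05 was 0.431% lower and 2.47% higher in 18Q vs. WT, and 0.722% lower and 2.02% higher in 79Q vs. WT, and no member was among the higher ones. With an unadjusted p under 0.05, 8 members were lower and 1 higher in 18Q vs. WT (21.1% and 2.63%, against 8.31% and 7.33% of all genes). In 79Q vs. WT 10 were lower and 1 higher (26.3% and 2.63%, against 10.5% and 6.57%). Most members moved little, with medians of -0.024 and -0.036 (all genes -0.014 and -0.019) and 36 and 35 of 38 within 0.2 log2 units. By role, the synthesis genes had the lowest medians (-0.13 and -0.14), and the mitochondrial and peroxisomal genes had 0.031 in 79Q. Both comparisons share the 5 WT control mice.

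Elovl2 makes the long precursors of docosahexaenoic acid. Its probe set (10408838) stood at 8.63, 8.57, 8.50, 8.62 and 8.41 in WT control mice and at 8.15, 8.19, 8.27, 8.22 and 8.40 in 18Q mice. The 8 mice with 79Q ran from 8.06 to 8.34 with a median of 8.27, so that no injected mouse reached the WT range. The differences were -0.30 (SE 0.059; limma, adjusted p = 0.00758) for 18Q and -0.30 (SE 0.053; limma, adjusted p = 0.00373) for 79Q, 1.23-fold lower in both. Exact permutation gave p = 0.00794 and p = 0.00155, the smallest values these group sizes allow. Without any single mouse the adjusted p stayed between 0.00189 and 0.0298 for 18Q and between 0.00298 and 0.0174 for 79Q.

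Acss2 (probe set 10477649), which turns acetate into acetyl-CoA in cytosol and nucleus, had 9.61, 9.54, 9.48, 9.53 and 9.47 in WT control mice. In 79Q mice it ran from 9.22 to 9.39 (median 9.28), below every WT control mouse, and fell by 0.23 on the log2 scale (-0.23, SE 0.043; limma, adjusted p = 0.00579). The 5 mice with 18Q had 9.25, 9.37, 9.47, 9.39 and 9.35, with 1 of them at the lowest WT value, and the difference of -0.16 (SE 0.048; limma, adjusted p = 0.108) did not pass.

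Acss1 had 9.52, 9.54, 9.62, 9.51 and 9.37 in WT control mice. In 79Q it ran from 9.23 to 9.39 (median 9.35), and 1 WT control mouse lay within that range. The difference was -0.18 (SE 0.04; limma, adjusted p = 0.0227), and it lost its call when WT control replicate 1, 2, 4 or 5 was left out (adjusted p 0.0582, 0.0702, 0.0814 and 0.0609). In 18Q the values were 9.33, 9.38, 9.42, 9.34 and 9.44, and the difference of -0.13 (SE 0.045; limma, adjusted p = 0.185) did not pass. At 2 months, in a separately normalized set, Acss1 differed by 0.26 between BACHD and WT mice, which did not pass adjustment, and the groups overlapped.

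Other genes of synthesis lay in the same direction without passing adjustment. Acly, which splits citrate into acetyl-CoA, had 10.09, 10.17, 10.14, 10.11 and 10.07 in WT control mice, 9.80, 10.01, 9.91, 9.77 and 10.07 in 18Q and 9.84 to 10.08 in 79Q. Its differences were -0.20 (SE 0.059; limma, adjusted p = 0.0969) and -0.17 (SE 0.053; limma, adjusted p = 0.132), and without 18Q replicate 6 the first passed (-0.24, adjusted p = 0.0248). Fasn, named here after its values were seen, had 11.50 to 11.64 in WT control mice, 11.29 to 11.50 in 18Q and 11.40 to 11.50 in 79Q, and neither injected group overlapped the WT range before rounding. It differed by -0.14 (SE 0.041; limma, adjusted p = 0.0983) and -0.11 (SE 0.037; limma, adjusted p = 0.138). With each array centred on its median, Acss2 (adjusted p = 0.0426) and Fasn (adjusted p = 0.0393) passed in 18Q vs. WT as well. Acaca lay at -0.06 in both comparisons and Acacb at 0.02 and -0.01.

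Lower values without overlap with WT control mice were found for 2 members in 18Q (Elovl2 and Fasn; background 2.02%) and for 4 in 79Q (Elovl2, Acss2, Fasn and Fads1; 1.35%). Fads1, the delta-5 desaturase, had -0.09 (SE 0.036; limma, adjusted p = 0.31) and -0.11 (SE 0.033; limma, adjusted p = 0.12). Acot7, the main thioesterase of neurons, had -0.07 (SE 0.035; limma, adjusted p = 0.387) and -0.09 (SE 0.031; limma, adjusted p = 0.155). Acot5 ran from 5.76 to 5.97 in WT control mice, 5.50 to 6.14 in 18Q and 5.56 to 5.97 in 79Q, and its difference in 79Q was -0.21 (SE 0.087; limma, adjusted p = 0.285). Acaa2, the mitochondrial thiolase, had -0.11 (SE 0.05; limma, adjusted p = 0.364) and -0.14 (SE 0.045; limma, adjusted p = 0.133). The 1 higher member in 18Q was Hacd4, at 5.97 to 6.13 against 5.84 to 5.96 in WT control mice (0.17, SE 0.061; limma, adjusted p = 0.213), and in 79Q it was Hadhb, the beta subunit of the mitochondrial trifunctional protein (0.11, SE 0.048; limma, adjusted p = 0.321). Hacd3 of the elongation cycle had -0.14 in 79Q (SE 0.049; limma, adjusted p = 0.189), and Ppt2 had 0.08 (SE 0.041) in 18Q and 0.06 (SE 0.037) in 79Q.

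**Figure D3:**
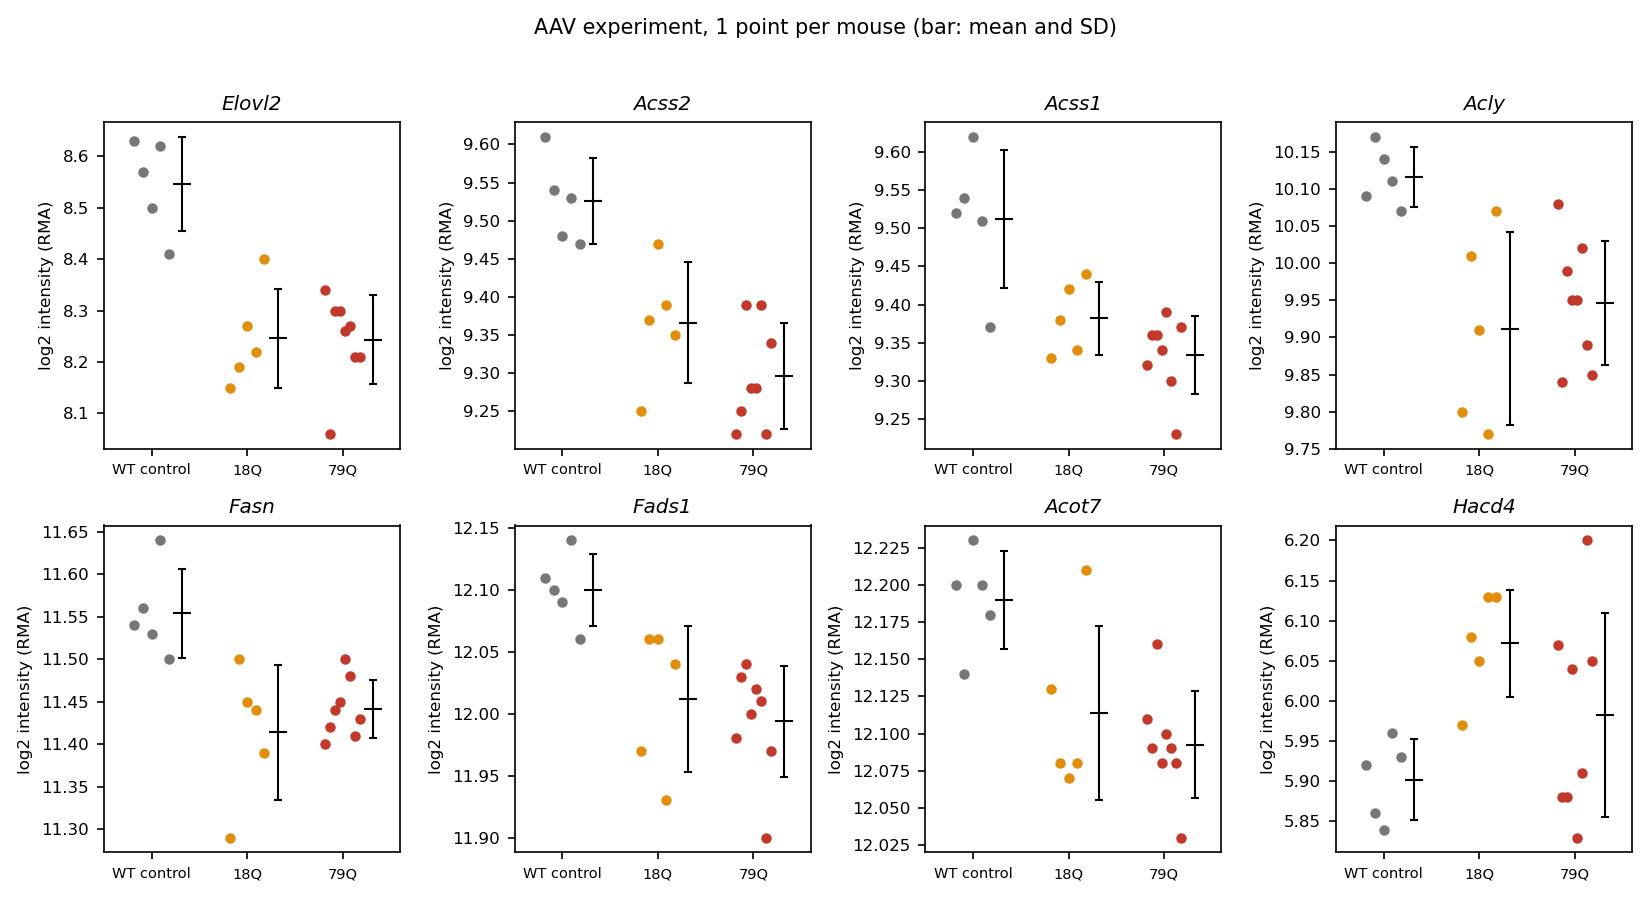
Log2 intensities after RMA (y axis) of 8 genes in WT control, 18Q and 79Q mice (x axis), 1 point per mouse, with mean and SD beside them. Elovl2 had 8.41 to 8.63 in WT control mice, 8.15 to 8.40 in 18Q and 8.06 to 8.34 in 79Q, and in 79Q no mouse reached the WT control range for Elovl2, Acss2, Fasn and Fads1.

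Injected and uninjected mice also differed in cell type markers. The mean of 4 lymphocyte markers ran from 7.11 to 7.88 in 18Q and 6.48 to 7.86 in 79Q against at most 6.23 in WT control mice (median 6.09), with 2 of 4 below the array median in injected mice and 4 of 4 in WT control mice. The mean of 5 microglia markers was 8.61 to 9.06 and 8.54 to 9.15 against 8.28 to 8.39. That of 7 astrocyte markers was 11.23 to 11.49 and 11.18 to 11.36 against 11.11 to 11.21, but the single markers were split. In both comparisons 4 of them lay above 0 and 3 below (medians 0.048 and 0.0099), 2 higher past adjustment in 18Q and 0 in 79Q. The mean of 12 hypothalamic neuron markers was 9.31 to 10.25 and 9.56 to 10.06 against 10.07 to 10.20. All 12 lay below 0 in both comparisons (medians -0.21 and -0.28), 0 past adjustment. With an unadjusted limma p under 0.05, 0 were lower in 18Q and 6 in 79Q (50%, against 10.5% of all genes). Of 4 general neuron markers, 4 lay below 0 in 18Q and 3 in 79Q (medians -0.082 and -0.078), 0 past adjustment. Of these, 1 and 2 had an unadjusted p under 0.05 (25% and 50%, against 8.31% and 10.5% of all genes lower). Endothelial markers had 5 of 5 above 0 in both comparisons (medians 0.25 and 0.17), 1 past adjustment in 18Q and 0 in 79Q, and a mean over 5 markers of 8.73 to 9.04 in 18Q and 8.61 to 8.91 in 79Q against 8.55 to 8.84. Oligodendrocyte precursor markers lay at or below 0 in both (3 of 3; medians -0.11 and -0.18), 0 past adjustment in 18Q and 1 in 79Q, with means of 9.13 to 9.26 and 9.07 to 9.18 against 9.17 to 9.35. Pituitary markers lay above 0 in 5 of 5 in 18Q and 3 of 5 in 79Q (medians 0.079 and 0.0021), 0 past adjustment in either. Their means were 7.09 to 8.89 and 6.71 to 8.55 against 6.53 to 7.19. The part of all these markers in the lower values of Elovl2, Acss1 and Acss2 was not tested.

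The comparison of 79Q with 18Q addresses the length of the CAG repeat, as both groups were injected with a vector of the same build. None of the 38 genes had an unadjusted p under 0.05 in limma, against 1.32% of all genes higher and 2.57% lower, and all 38 differed by less than 0.2 log2 units. Elovl2 differed by 0.00, with a 95% interval from -0.11 to 0.11. For Acss2 the difference was -0.07 (95% interval -0.16 to 0.02) and for Acss1 -0.05 (-0.14 to 0.03). Acot5 had the lowest value, -0.15 (SE 0.087), with 5.56 to 5.97 in 79Q and 5.50 to 6.14 in 18Q. Smallest p values in the other groups belonged to Hacd4 (-0.09, SE 0.055), Elovl3 (-0.09, SE 0.068), Hadha (-0.04, SE 0.034), Fads2 (-0.04, SE 0.03) and Ppt2 (-0.03, SE 0.037). These intervals bound the differences and do not show that the vectors act alike. All 5 pituitary markers lay below 0 in this comparison (median -0.53, 0 past adjustment), and the part of pituitary tissue was not tested.

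Elovl7 had the largest pooled SD within groups of all 38 members, 0.24. Acot5, Acot3 and Elovl1 followed with 0.16 each, against a median of 0.092 over the members and 0.11 over all genes, and Tecr had the smallest, 0.044. Elovl7 and Elovl1 act on saturated long-chain acyl-CoA, and very long chains are plentiful in myelin lipids. In 18Q mice Elovl7 gave 8.64, 9.07, 9.48, 8.54 and 8.93 and Elovl1 9.83, 9.87, 10.30, 9.86 and 9.85. Replicate 3, highest in both, also had the highest oligodendrocyte marker mean (11.31, against 10.53 to 11.03 in the other AAV arrays). Among the AAV arrays it also had the highest thalamic marker mean (8.08) and the lowest hypothalamic neuron marker mean (9.31). Next in all these means came 79Q replicates 6 to 8, with thalamic means of 7.84 to 7.97 and hypothalamic neuron means of 9.56 to 9.64. Whether the spread of Elovl7 and Elovl1 reflects oligodendrocytes or the dissected region was not tested. The same arrays stood out in both kinds of markers. With the oligodendrocyte marker mean as a covariate, the SE of Elovl7 in 79Q vs. WT went from 0.14 to 0.045. Its difference went from 0.14 to 0.05. In 18Q vs. WT the SE of Elovl7 went from 0.15 to 0.049 and its difference from 0.02 to -0.03. For Elovl1 the SE went from 0.089 to 0.045 and the difference from 0.10 to 0.04 in 79Q vs. WT, while in 18Q vs. WT the SE went from 0.098 to 0.049 and the difference from 0.17 to 0.14, with an unadjusted limma p of 0.00997 (adjusted p = 0.175). In 79Q vs. WT Elovl2 kept its SE (0.053 and 0.054) and its difference (-0.30 and -0.31; adjusted p = 0.00459 with the covariate), and Acss2 (-0.24; adjusted p = 0.00269) and Acss1 (-0.18; adjusted p = 0.0299) kept their calls.

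**Figure D4:**
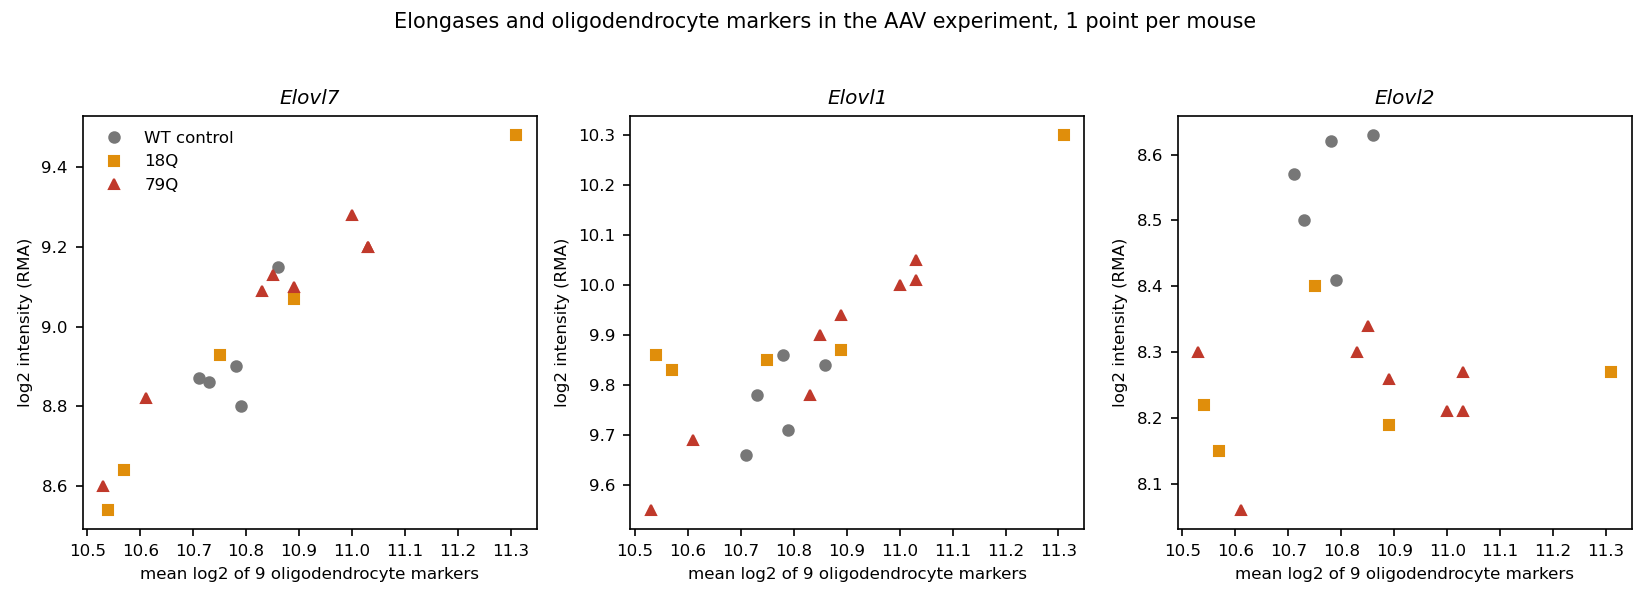
Log2 intensities after RMA (y axis) of 3 elongases against the mean log2 intensity of 9 oligodendrocyte markers (x axis) in the 18 AAV arrays, 1 point per mouse. Elovl7 and Elovl1 are highest in the 18Q mouse with a marker mean of 11.31. For Elovl2 the highest injected mouse has 8.40 and the lowest WT control mouse 8.41. Marker means run from 10.71 to 10.86 in WT control mice, 10.54 to 11.31 in 18Q and 10.53 to 11.03 in 79Q.

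Genes that control or feed the pathway were listed by function as well. Of 14 regulators of lipid synthesis, 1 fell past adjustment in each of the injected groups against WT control mice. It was Insig1, which holds the SREBP precursors in the endoplasmic reticulum and is itself a target of SREBP. Insig1 ran from 10.99 to 11.25 in WT control mice, 10.50 to 10.89 in 18Q and 10.65 to 10.93 in 79Q, and fell (-0.33, SE 0.076; limma, adjusted p = 0.0238 in 18Q, and -0.30, SE 0.069; limma, adjusted p = 0.0275 in 79Q). Srebf2, the regulator of sterol genes, had -0.17 (SE 0.048; limma, adjusted p = 0.0791) and -0.14 (SE 0.043; limma, adjusted p = 0.106). Srebf1, the regulator of fatty acid synthesis, had 0.02 (SE 0.041) and 0.01 (SE 0.037), and Mlxipl, which responds to glucose, 0.05 (SE 0.065) and -0.04 (SE 0.059).

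In BACHD mice at 2 months Insig1 had -0.23 (SE 0.10; limma, adjusted p = 0.939), Srebf1 -0.06, Srebf2 -0.07 and Mlxipl 0.02. At 10 months the same 4 genes lay between -0.04 and 0.05. No gene passed adjustment in any comparison among 6 of citrate, NADPH and malonyl-CoA supply, 10 acyl-CoA synthetases and fatty acid binding proteins, 14 other desaturases and thioesterases and 17 of the carnitine shuttle and beta-oxidation. In 79Q vs. WT all 6 genes of the citrate, NADPH and malonyl-CoA list lay below 0 (median -0.11), 4 with an unadjusted p under 0.05 (66.7%, against 10.5% of all genes lower). In 18Q vs. WT 5 of them lay below 0 (median -0.088), 3 with an unadjusted p under 0.05 (50%, against 8.31%), and in 79Q vs. 18Q the median was -0.025. Of the 17 beta-oxidation genes, 12 lay above 0 in 79Q vs. WT (median 0.04), 1 with an unadjusted p under 0.05 (5.88%, against 6.57% of all genes higher). In 18Q vs. WT 11 did (median 0.011), 1 with an unadjusted p under 0.05 (5.88%, against 7.33%). At 2 months the regulators had a median of -0.06 and the beta-oxidation list -0.043, below the median of all genes. Fabp7, a fatty acid binding protein of glial and progenitor cells named here after its values were seen, had 0.33 (SE 0.12) at 2 months and -0.35 (SE 0.093) at 10 months, a change of -0.68 (SE 0.17; limma, adjusted p = 1).

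Promoter windows are shown for the 3 genes that fell past adjustment in injected mice and for Acot5, the gene with the largest difference at 2 months. They are 300 base windows of RefSeq (build GRCm38.p6), from 250 bases before to 50 after the gene's start, written 5' to 3' on the gene's strand, and 33 of the 38 members had one. Capitals mark the Sp1 box GGGCGG and the NF-Y box CCAAT, found on either strand.
Elovl2 (chr13:41220354-41220653, minus strand): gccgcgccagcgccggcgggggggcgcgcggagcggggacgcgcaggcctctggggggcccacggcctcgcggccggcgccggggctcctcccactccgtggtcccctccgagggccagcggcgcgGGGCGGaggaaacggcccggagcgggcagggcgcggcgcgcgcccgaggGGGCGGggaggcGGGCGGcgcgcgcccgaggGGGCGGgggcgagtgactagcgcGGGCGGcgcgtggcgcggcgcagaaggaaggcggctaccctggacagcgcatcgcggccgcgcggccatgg
Acss1 (chr2:150668191-150668490, minus strand): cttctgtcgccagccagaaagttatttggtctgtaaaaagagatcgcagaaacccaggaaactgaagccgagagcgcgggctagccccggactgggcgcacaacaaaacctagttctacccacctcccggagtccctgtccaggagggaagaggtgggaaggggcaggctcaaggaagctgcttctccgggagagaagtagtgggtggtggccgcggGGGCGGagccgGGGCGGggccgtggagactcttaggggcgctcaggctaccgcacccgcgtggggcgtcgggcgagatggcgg
Acss2 (chr2:155517793-155518092, plus strand): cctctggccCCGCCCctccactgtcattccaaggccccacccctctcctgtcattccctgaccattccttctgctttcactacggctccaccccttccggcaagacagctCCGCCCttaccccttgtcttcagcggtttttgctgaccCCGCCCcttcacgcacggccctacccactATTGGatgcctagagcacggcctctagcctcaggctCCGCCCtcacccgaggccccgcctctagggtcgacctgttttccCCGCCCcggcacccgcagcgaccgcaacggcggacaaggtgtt
Acot5 (chr12:84069074-84069373, plus strand): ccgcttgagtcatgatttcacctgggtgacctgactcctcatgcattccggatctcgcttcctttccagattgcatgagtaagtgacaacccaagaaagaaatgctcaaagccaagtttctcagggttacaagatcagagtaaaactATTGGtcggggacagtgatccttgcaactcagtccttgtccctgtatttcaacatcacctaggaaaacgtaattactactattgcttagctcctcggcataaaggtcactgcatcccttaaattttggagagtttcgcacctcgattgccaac

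The Sp1 box occurred 5 times in the windows of Elovl2 and Acss2, 2 times in that of Acss1 and 0 times in that of Acot5, and the NF-Y box 1 time each in those of Acss2 and Acot5. Of the 33 member windows, 21 held the Sp1 box and 18 the NF-Y box, against 35.7% and 37.4% of all 32851 windows. Member windows are 1 per gene, that of its most upstream start. The 32851 are every window of the reference, not reduced to 1 per gene or to genes on the array. The 2 sets are therefore unlike, and no enrichment was tested. The E-box CACGTG was in 4 member windows (7.15% of all). The sterol regulatory element TCACNCCAC (1.24% of all) and a direct repeat 1 of PPAR (0.0396%) were in 0. The boxes were searched on both strands and no overlap between different boxes was removed. These are matches of letters within 300 bases and describe no binding.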

How the data were processed

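Hypothalamic RNA of 38 mice was measured on 1 array each. Per the labels and the methods of the study, the authors read the raw files with ReadAffy and RMA (R 4.1.1, affy 1.70.0; limma 3.48.3 for their tests), and the deposited values are log2 intensities of 34760 probe sets, with no filter. Identical values occurred only between arrays of 1 set (AAV, 2 months or 10 months), which were treated as 3 separate RMA runs. The platform table names 1 gene for 21640 probe sets and several for 1321, and 11799 are not in it. Acaca, Hacd1 and Hacd2 have 2 such probe sets each.

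limma 3.58.1 in R 4.3.3 was fitted to all probe sets (lmFit, contrasts, eBayes), the 18 AAV arrays in 1 fit, each BACHD age alone and the age by genotype term over 20 arrays. Adjusted p is Benjamini-Hochberg over all probe sets, SE is the standard error of limma, and intervals are 95%. Background shares and medians are over 19937 genes. Exact two-sided permutation tests (scipy) of single genes are unadjusted. The steps were tested on simulated data.

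The labels name separate mice, whose condition was taken from them. Members and lists were chosen with earlier results of these data known, and the study itself examined fatty acid pathways at 2 months on these mice, so that no list result there, in either direction, is independent evidence. Genes were named by a rule: every member with an adjusted p under 0.05, at 2 months every member with an unadjusted p under 0.05 and the 2 with the smallest p in each group, elsewhere the one with the smallest p in each group, Acot5 and Acss1, and of other genes up to 3 per list with an adjusted p under 0.05 and 4 regulators. Fasn, Fabp7, Elovl1, Elovl7 and Hadhb, and Acly and Acss2 in the comparisons where the rule did not take them, were named after their values were seen. Alternatives were array centring, a filter on dim probe sets, the mean of a gene's probe sets, trend and robust eBayes, replicate number as a block, other sets of arrays in the fit, marker means as covariates and leaving out each array.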

Additional observations from a re-analysis of the deposited data

Results flagged for a closer look

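In 12 of the 228 sets of values tested (38 genes in 6 groups of 5 to 8 mice), the highest or lowest mouse stood apart from its group by Dixon's criterion, which chance meets in about 1 of 20 sets. In 18Q, replicate 3 was highest in Elovl1 (10.30, next 9.87) and Fads2 (12.56, next 12.46), and replicate 1 lowest in Acacb (7.58, next 7.69). In 79Q, replicate 2 was lowest in Elovl2 (8.06, next 8.21), away from WT control mice. Among WT control mice, replicate 1 was highest in Elovl7 (9.15, next 8.90), replicate 2 lowest in Scd3 (8.15, next 8.31) and replicate 4 lowest in Hadha (10.22, next 10.29). Among WT mice at 2 months, replicate 7 was lowest in Elovl3 (4.69, next 5.04), replicate 1 in Fads2 (12.26, next 12.40) and replicate 3 in Scd2 (13.35, next 13.39). In BACHD mice at 10 months, replicate 1 was lowest in Elovl4 (11.33, next 11.42) and replicate 3 highest in Ppt2 (9.24, next 9.04). The change of the genotype difference from 2 to 10 months had an unadjusted p under 0.05 (limma, interaction term) in Acot5 (-0.42, 95% interval -0.71 to -0.12) and Scd3 (-0.36, -0.63 to -0.08), and neither passed adjustment (limma, adjusted p = 1).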

How the results depend on the processing

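No result changed direction while called. All 451 alternative values of members with an unadjusted p under 0.05 in the main fit kept their direction. Those members were selected for their difference, which makes this likely. Members named on other grounds were not counted, and Elovl7 in 18Q vs. WT went from 0.02 to -0.03 with the oligodendrocyte marker mean as a covariate. Counts below are of members with an unadjusted p under 0.05 unless adjustment is named. At 2 months, 1 fit over both ages gave 6 higher members (3 as reported), and centring each array on its median gave a median of 0.092 (0.042). Without WT replicates 1 and 2 or 4 and 5, 2 alternatives chosen after seeing the data, this median was 0.058 and 0.014. Centring also gave an age by genotype median of -0.09 (-0.032), 3 members past adjustment in 18Q vs. WT (1) and 0 higher in 79Q vs. WT (1). At 10 months, 0 members were higher (1) with dim probe sets left out. In 18Q vs. WT, 2 were higher with the mean of all probe sets of a gene, 3 with trend and robust eBayes and 4 with the oligodendrocyte marker mean as a covariate (1), and 5 were lower when the 2 groups were fitted alone (8). In 79Q vs. WT, 0 were higher with that covariate (1). The causes were not tested.

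The labels do not say whether equal replicate numbers pair mice. Deviations of equally numbered mice correlated between -0.31 and 0.28, and at 2 months 2 of 6 such pairs exceeded 0.1. A block on replicate number leaves out mice whose number the other group lacks. It kept 3 numbers in 18Q vs. WT and 5 in 79Q vs. WT, so that the loss of mice and the block cannot be told apart. With this block, 0 members were higher at 10 months. In 18Q vs. WT 0 passed adjustment (Elovl2 -0.38; limma, adjusted p = 0.204) and 4 were lower. In 79Q vs. WT 0 passed under the block (Elovl2 -0.31, adjusted p = 0.113; Acss2 -0.28, 0.0763; Acss1 -0.19, 0.211) and 0 were higher, and in 79Q vs. 18Q 1 was lower.

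Leaving out 1 mouse at a time gave, at 2 months, 2 to 6 higher and 0 to 1 lower members and medians of -0.0043 to 0.052. At 10 months it gave 0 to 1 higher and 0 to 2 lower. In 18Q vs. WT, 1 to 2 passed adjustment (Acly without 18Q replicate 6, Acss1 without WT control replicate 7, adjusted p = 0.0499), 1 to 3 were higher and 5 to 9 lower. In 79Q vs. WT, 2 to 3 passed and 0 to 2 were higher, and in 79Q vs. 18Q 0 to 1 were higher and 0 to 1 lower. Dim probe sets, such as that of Acot5, carry less signal over background.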
